A study of Homo sapiens with 54 samples.

Results

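Macrophages of 3D culture at day 19 were compared with and without FBS, the usual abbreviation of fetal bovine serum. The comparison rests on 6 bulk RNA libraries, chosen by title: 3 that name 3D, day 19 and FBS, and 3 that name 3D and day 19 alone. They are 6 of the 32 bulk RNA libraries and of the 54 samples of the series, which set macrophage differentiation in a porous 3D niche beside flat 2D culture and added chromatin and single-cell libraries. Both groups were derived from H1, an established human embryonic stem cell line, and both carry the labels macrophage, protocol 3D and day 19. Both therefore share the cell line, the 3D protocol and the day, and differ by label only in FBS. The labels do not say when FBS was added, at what dose, or whether the 3 replicates of a group are separate cultures, so a p-value here measures the spread between these libraries alone. H1 is a single line, so no spread between donors is measured. Levels are TPM (a share of the RNA of a library, corrected for transcript length) as the authors deposited them. Of 58735 genes in the table, 13300 averaged 1 TPM or more across the 6 libraries and were tested.

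Serum brings lipoproteins, hormones, binding proteins and growth factors into a culture that otherwise holds only the factors added to it. Cells that take up cholesterol keep the factor SREBP2 inactive, which lowers transcription of the genes of sterol synthesis, and oxidised sterols activate LXR, which raises transcription of genes for cholesterol export. Growth factors and lipids of serum also act through MAP kinases on the serum response factor SRF, whose best known targets are the immediate early genes, transcribed before any new protein is needed. Macrophages depend on the receptor of the growth factor CSF1, clear particles and lipids through scavenger receptors, recycle iron, and take on inflammatory, lipid-laden or tissue-resident programmes.

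The libraries differed between the groups in more than single genes. The 3 genes known only by clone names (FP236383.2, FP236383.3 and FP671120.3), which share 1 value in each library, took 12.8, 20.2 and 21.3% of the TPM without FBS and 28.9, 32.3 and 24.1% with it. Rescaling each library without these 3 genes moved the median log2 change of all genes from 0.05 to 0.21. Transcripts of the mitochondrial genome took 6.43 to 7.97% of the TPM without FBS and 5.39 to 7.29% with it, and genes of cytosolic ribosomal proteins 6.97 to 7.92% and 5.33 to 5.74%. The nuclear RNA MALAT1 lay at 5313 to 6168 TPM without FBS and 6413 to 10593 TPM with it. Between 12009 and 12417 genes reached 1 TPM without FBS and between 12323 and 12704 with it, and the sources used here do not give read totals. Across genes, libraries of the same group correlated at 0.914 to 0.934 without FBS and 0.868 to 0.876 with it, on the log2 scale, and libraries of different groups at 0.758 to 0.814. The part of these shares in the results below was not tested.

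All 14 identity markers of macrophages passed the level filter, and their summed level was 15938 to 17079 TPM without FBS and 17399 to 18969 TPM with it. With FBS 6 of the 14 rose, 2 fell and 6 missed the threshold (with 1 library left out 3 to 5 higher, fewest without no FBS replicate 2, FBS replicate 2 or FBS replicate 3, and 0 to 2 lower, fewest without FBS replicate 1). The 2 that fell were CD68 and FCER1G, a signalling chain of Fc receptors (log2 changes -0.98 and -0.66), and neither was called without the mean-variance trend of the fit. The call of FCER1G was also lost without FBS replicate 1, adjusted p = 0.0504. The lineage factor SPI1 (PU.1) lay at 41.9, 28.2 and 38.5 TPM without FBS and 54.9, 95.95 and 99.5 TPM with it, with groups that did not overlap and a call that was lost in 4 of the 6 fits that leave out 1 library (without no FBS replicate 2, no FBS replicate 3, FBS replicate 2 or FBS replicate 3, adjusted p = 0.0502 to 0.0898). The lipopolysaccharide co-receptor CD14 was at 1054, 927 and 908 and 966, 971 and 1154 TPM. CD14 was not called (log2 change 0.10, adjusted p = 0.623). CSF1R, the receptor for CSF1, rose from 205, 158 and 124 to 409, 405 and 414 TPM (log2 change 1.36 ± 0.20 SE, adjusted p = 0.00125), with no overlap between groups. No gene of the fibroblast, pluripotent or neural marker lists passed the level filter. Genes of mast cells, basophils and eosinophils varied by library rather than by group. CLC, a protein of eosinophils and basophils, was at 639, 5.75 and 5.97 TPM without FBS and 3.18, 209.8 and 298 TPM with it. The summed level of that list was 7.70 to 874 TPM without FBS and 4.32 to 356 TPM with it, and 0 of its 7 tested genes were called. Fewer cells of a type and less RNA per cell cannot be told apart in bulk libraries.

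With FBS, 1688 of the 13300 genes were higher, which is 12.7% of those tested, and 1518 were lower, which is 11.4%. The remaining 10094 were not called at an adjusted p of 0.05. In 3182 of the 3206 called genes the groups did not overlap, so a lack of overlap given below is shared by nearly all called genes. For the largest changes it was also a condition of choice. After rescaling without the 3 clone genes the split was 2135 higher and 1182 lower, so the balance between the directions depends on the scaling. The 3206 calls became 1929 without no FBS replicate 1, 1610 without no FBS replicate 2, 2004 without FBS replicate 1 and 2107 without FBS replicate 2, and 1296 of the genes were called in each of the 6 fits that left out 1 library. Beside the counts of a list at day 19 stands their range over those 6 fits, with libraries whose absence gave the fewest calls or, where most did, the most. The 12.7% higher and 11.4% lower over all genes are the background for each such count. Of 10504 protein-coding genes 1278 were higher and 1367 lower, with a median log2 change of -0.05. Of 442 genes of long noncoding RNA 66 were higher and 22 lower, with a median of 0.51.

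The largest changes covered secreted proteins, receptors and enzymes of lipid and sugar metabolism. SPP1 (ENSG00000118785, chromosome 4, 87975714 to 87983411), which encodes osteopontin, a secreted matrix protein of lipid-laden and scar macrophages, lay at 9194, 6383 and 5403 TPM without FBS and 80.9, 59.3 and 168 TPM with it. It fell by 6.18 ± 0.33 (SE) on the log2 scale (adjusted p = 1e-05). CHI3L1 (chromosome 1, 203178931 to 203186704), a chitinase-like secreted protein, went from 781, 675 and 587 to 2.95, 4.93 and 22.7 TPM (log2 change -6.36 ± 0.54 SE, adjusted p = 7.99e-05). MARCO (chromosome 2, 118942194 to 118994660), a scavenger receptor for bacteria and particles, went from 367, 382 and 358 to 7.93, 5.09 and 2.58 TPM (log2 change -5.996 ± 0.33 SE, adjusted p = 1e-05). For each of these 3 genes the groups lay far apart, with every library without FBS above every library with it. TUBA1B, an alpha tubulin, fell from 1725, 1255 and 799.5 to 80.8, 89.1 and 40.9 TPM. The NK and myeloid receptor SLAMF7 fell (log2 change -4.78), as did IL32, a proinflammatory cytokine (log2 change -4.42), and TDO2, an enzyme that opens the ring of tryptophan (log2 change -4.75). MYEOV was at 31.9, 24.4 and 24.7 TPM without FBS and listed at 0 in every library with it. The drop of FABP5P7, a pseudogene of FABP5, cannot be told apart with certainty from that of its parent gene, and the same holds for the pseudogene BTF3L4P2.

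Among the largest increases, the AP-1 subunit FOSB (chromosome 19, 45467996 to 45475179) lay at 1.02, 2.17 and 4.05 TPM without FBS and 212, 238 and 211 TPM with it (log2 change 6.12 ± 0.35 SE, adjusted p = 1.05e-05). PDK4, the kinase that switches off pyruvate dehydrogenase when fat is burned, went from 0.19, 1.31 and 0 to 59.97, 76.3 and 94.2 TPM (log2 change 5.77 ± 0.40 SE, adjusted p = 2.72e-05). THBS1, which encodes the secreted adhesion protein thrombospondin, went from 11.5, 16.3 and 58.4 to 912, 999.8 and 1116 TPM (log2 change 5.42 ± 0.47 SE, adjusted p = 8.09e-05). None of these 3 genes had overlapping groups, although the third library without FBS stood above the other two for THBS1. PLEKHG5, an exchange factor of small GTPases, rose from 1.66, 3.05 and 0.82 to 84.5, 107 and 81.2 TPM, and GABRE, a subunit of GABA receptors, from 3.41, 1.18 and 0.68 to 72, 52.8 and 80.3 TPM. CCDC152 had the largest increase of all (log2 change 7.03 ± 0.68 SE), but at chromosome 5, 42756818 to 42802439 it overlaps SELENOP (chromosome 5, 42799880 to 42811892), and SMART-seq2 does not mark the strand, so their reads cannot be told apart where the genes overlap. The same holds for IER3-AS1 and IER3. The rule also named the noncoding RNAs LINC00173, SNORD3A and RN7SL2, of which the last 2 are small RNAs that a polyA protocol captures poorly, and the readthrough transcript TNFSF12-TNFSF13. Their log2 changes were 5.50, 5.01, 4.64 and 5.86, and the call of SNORD3A was lost in 5 of the 6 fits without 1 library (without no FBS replicate 1, no FBS replicate 2, FBS replicate 1, FBS replicate 2 or FBS replicate 3, adjusted p = 0.0522 to 0.083).

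**Figure D1:**
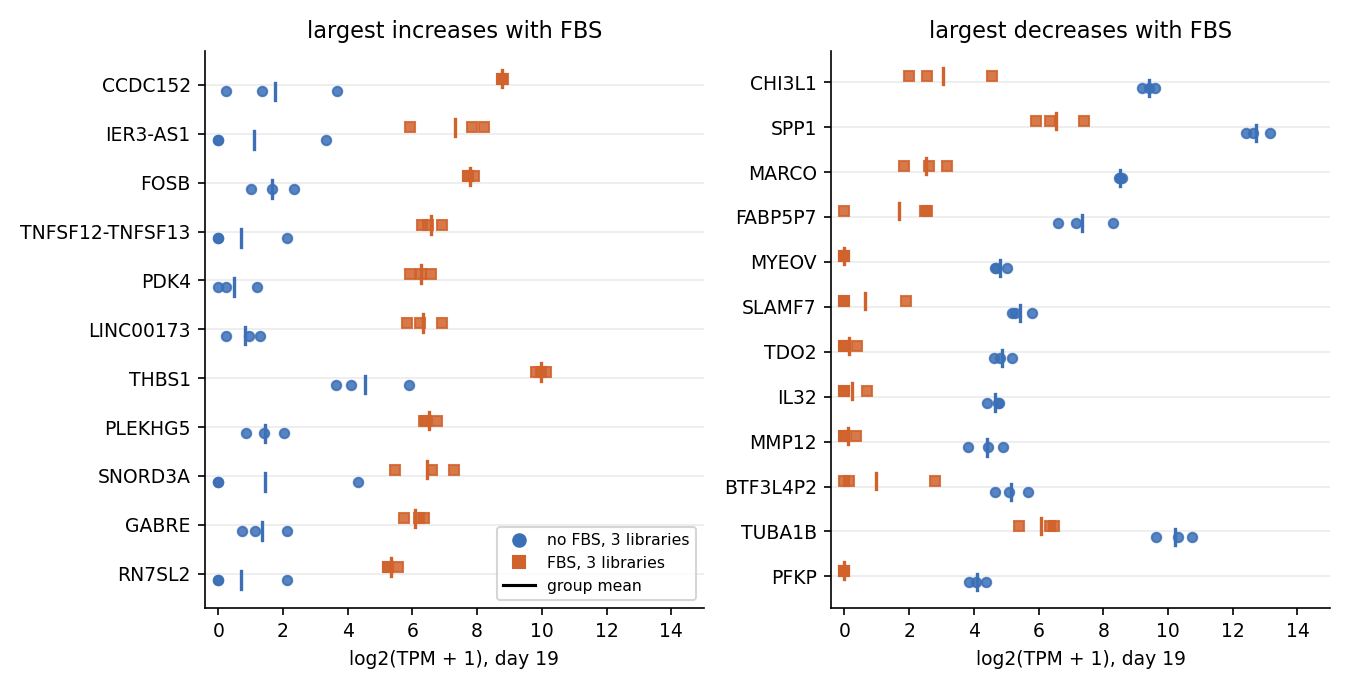
Level of 11 of the 12 genes with the largest increase (left) and of the 12 with the largest decrease (right) at day 19, as log2(TPM + 1) on the horizontal axis. Circles are the 3 libraries without FBS and squares the 3 with it, with a bar at the group mean. That the 2 groups do not overlap was a condition for choosing these 23 genes.

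Genes of sterol synthesis were lower with FBS. Among 22 members 19 fell, 0 rose and 3 missed the threshold, with a median log2 change of -1.73 against 0.05 over all genes (12 to 16 lower when 1 library was left out, fewest without no FBS replicate 2). SQLE, which makes squalene epoxide, lay at 54.5, 49.4 and 49.3 TPM without FBS and 5.86, 3.74 and 5.99 TPM with it (log2 change -3.09 ± 0.29 SE, adjusted p = 0.000146). MSMO1, a sterol demethylase step, went from 67.3, 55.1 and 43.8 to 8.24, 3.36 and 6.57 TPM (log2 change -3.05 ± 0.35 SE). For both, every library with FBS lay below every library without it. EBP, a sterol isomerase, fell from 177, 156 and 149 to 31.03, 35.4 and 19.6 TPM, and FDPS, which makes farnesyl pyrophosphate, from 286, 264 and 278 to 54.8, 63.5 and 91.01 TPM. FDFT1, the first enzyme committed to sterols, fell as well (log2 change -2.58), as did CYP51A1 (-2.74), DHCR7 (-2.43) and INSIG1 (-1.61), which holds SREBP in the endoplasmic reticulum. Among the members not called were the synthase HMGCS1 (log2 change -1.34, adjusted p = 0.0764) and SREBF2, the gene of SREBP2 itself (-0.82, adjusted p = 0.119).

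Enzymes that put double bonds into fatty acids fell beside the sterol genes. SCD (chromosome 10, 100347233 to 100364826), the stearoyl-CoA desaturase, lay at 52.1, 40.2 and 47.02 TPM without FBS and 1.18, 3.10 and 2.73 TPM with it (log2 change -3.87 ± 0.35 SE, adjusted p = 0.000109). FADS1, a desaturase of polyunsaturated fatty acids, went from 62.1, 67.5 and 57.6 to 10.5, 9.86 and 6.41 TPM (log2 change -2.70 ± 0.28 SE). FABP5, a carrier of fatty acids, went from 572, 616 and 567 to 100.1, 76.7 and 132 TPM (log2 change -2.53 ± 0.21 SE), with the same reserve for its pseudogenes as above. In all 3 the groups were apart. FASN, which builds the chain of fatty acids, was not called (log2 change -0.35, adjusted p = 0.657), nor was SREBF1 (log2 change 0.42, adjusted p = 0.298). Of 13 genes of fatty acid synthesis and desaturation, 1 rose, 5 fell and 7 were not called, with a median of -1.05 (with 1 library left out 0 to 1 higher, most without no FBS replicate 1, and 3 to 5 lower, fewest without no FBS replicate 1, no FBS replicate 2 or no FBS replicate 3).

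Among genes of cholesterol export, the targets of LXR, more rose than fell. ABCA1, which loads cholesterol onto apolipoproteins, lay at 4.64, 4.65 and 2.08 TPM without FBS and 21.6, 23.8 and 28.6 TPM with it (log2 change 2.47 ± 0.36 SE, adjusted p = 0.00133). APOE, the main apolipoprotein of macrophages, went from 30.8, 29.9 and 41.8 to 122, 222 and 199.7 TPM (log2 change 2.34 ± 0.27 SE, adjusted p = 0.000416). ABCG1, a second exporter, rose from 2.10, 2.68 and 2.97 to 14.1, 21.6 and 20.7 TPM. The gene of LXR alpha itself, NR1H3, rose (log2 change 1.86), and CH25H, which makes 25-hydroxycholesterol, fell (log2 change -1.76). Of 13 members 6 rose, 2 fell and 5 were not called, with a median of 0.61 (with 1 library left out 4 to 6 higher, fewest without FBS replicate 1 or FBS replicate 3, and 1 to 2 lower, most without no FBS replicate 3 or FBS replicate 2). The summed level of the list was 1962 to 2436 TPM without FBS and 1836 to 2404 TPM with it. The plot of sterol, fatty acid and export genes by library shows lower levels with FBS for most genes of the first panel and both directions in the last.

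**Figure D2:**
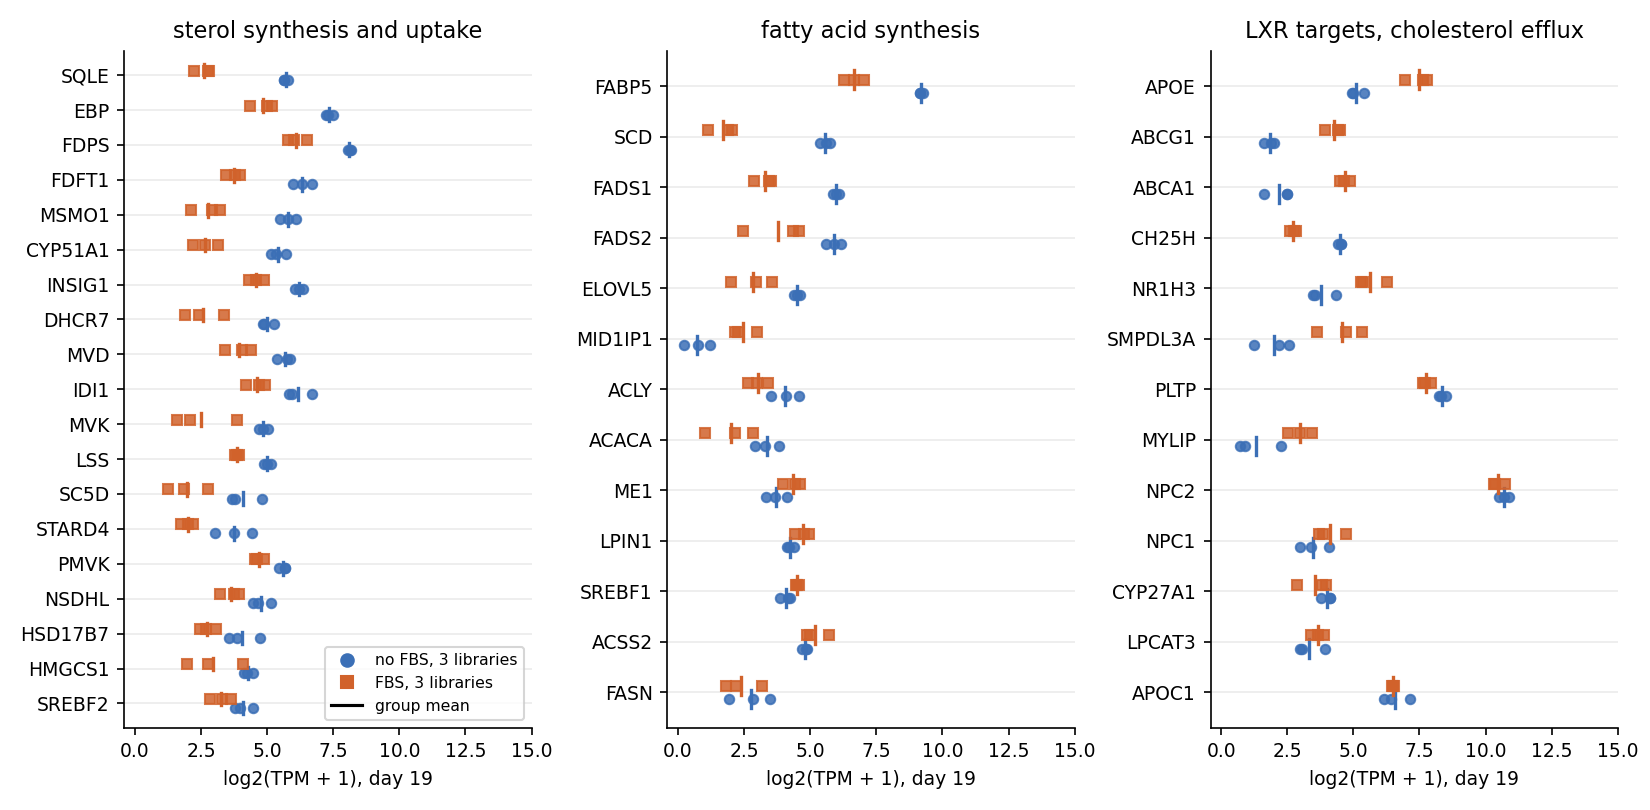
Level of 19 of the 22 tested genes of sterol synthesis and uptake (left), and of each tested gene of fatty acid synthesis and desaturation (middle) and LXR targets and cholesterol efflux (right) in the 6 libraries of day 19, as log2(TPM + 1), ordered from the lowest p at the top. Circles are the libraries without FBS, squares those with it and bars the group means; 17 of the 19 sterol genes shown were called lower and 6 of 13 export genes higher.

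The promoters of these genes were read for short motifs, because the genes moved together. RefSeq promoters of 300 bases (250 before to 50 after the start, GRCh38.p14) were at hand for 17 of the 22 sterol genes, in 22 windows, and for 35116 windows of all genes. The sterol regulatory element TCACCCCAC, on either strand, was in 1 of the 22 windows, that of SREBF2, and in 0.430% of all windows. The CCAAT box, bound by NF-Y and searched for after the levels were seen, was in 17 of the 22 windows (77.3%) and in 34.6% of all windows. Shown are 2 stretches of 250 bases before the start: MSMO1, which fell, on the plus strand at chr4:165327419-165327668 with its 4 CCAAT matches in capitals, and SREBF2, which was not called, on the plus strand at chr22:41832855-41833104 with TCACCCCAC in capitals. A match is a string of letters in the window and not a measured site.
MSMO1: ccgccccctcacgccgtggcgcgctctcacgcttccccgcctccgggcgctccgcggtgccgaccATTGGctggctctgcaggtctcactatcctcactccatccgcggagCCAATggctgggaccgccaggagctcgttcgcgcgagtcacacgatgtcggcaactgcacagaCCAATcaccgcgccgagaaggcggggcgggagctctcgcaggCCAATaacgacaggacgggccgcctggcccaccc
SREBF2: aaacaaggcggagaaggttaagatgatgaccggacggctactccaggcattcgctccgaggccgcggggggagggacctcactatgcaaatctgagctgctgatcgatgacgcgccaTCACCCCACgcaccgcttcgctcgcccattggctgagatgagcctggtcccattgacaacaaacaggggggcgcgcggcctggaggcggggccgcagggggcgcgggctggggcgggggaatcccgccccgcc

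Immediate early genes were higher with FBS at day 19. Of the 22 measured 19 rose, 1 fell and 2 missed the threshold, with a median log2 change of 1.70 (with 1 library left out 14 to 17 higher, fewest without FBS replicate 1, FBS replicate 2 or FBS replicate 3, and 1 lower in each). EGR1 (chromosome 5, 138465479 to 138469303), a zinc finger factor and a classical SRF target, lay at 9.01, 14.5 and 10.4 TPM without FBS and 169.6, 157 and 213 TPM with it (log2 change 3.89 ± 0.26 SE, adjusted p = 2.08e-05). EGR2 went from 2.53, 3.27 and 2.35 to 55.5, 54.9 and 96.7 TPM (log2 change 4.19 ± 0.33 SE, adjusted p = 5.58e-05). IER3, which protects from cell death, went from 114, 126 and 139.6 to 640.3, 597 and 621 TPM (log2 change 2.28 ± 0.15 SE, adjusted p = 2.1e-05), with the reserve given for its antisense gene. All 3 had every library with FBS above every library without it. KLF6, a zinc finger factor of activated macrophages, rose from 151, 157 and 160.4 to 545, 549 and 556 TPM. The orphan receptor NR4A2 rose (log2 change 2.60), and so did EGR3 (3.65), the AP-1 subunits JUND (2.71) and FOSL2 (2.36), DUSP1, a phosphatase that turns off MAP kinases (1.39), and ZFP36, which destabilises cytokine mRNA (1.25). MYC, a transcription factor of growth counted among these genes, was the 1 that fell, from 19.1, 22.8 and 12.7 to 2.64, 0.23 and 1 TPM (log2 change -3.17 ± 0.48 SE, adjusted p = 0.00152). JUN was not called (log2 change 0.18, adjusted p = 0.741).

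Windows of 17 immediate early genes (21 in number) were searched too. The CArG box, the site that SRF reads and a motif chosen after the levels were seen, was in 2 windows, those of EGR1 and EGR2 (9.52%, against 1.29% of all windows). The cyclic AMP element TGACGTCA was in 2 windows, those of JUND and DUSP1 (9.52%, against 1.85% of all). Shown are the 250 bases before the start of EGR1, plus strand, chr5:138465229-138465478, with its 2 CArG boxes in capitals, and of JUND, minus strand, chr19:18281623-18281872, with TGACGTCA in capitals. In the list of SRF and actin cytoskeleton genes, 7 of 32 windows held a CArG box (21.9%). Among the genes of those windows ACTG1, TPM4 and FLNA were called lower and the others were not called. Of 20 genes of that list tested, 1 rose, 6 fell and 13 were not called, with a median of -0.57 (with 1 library left out 1 to 2 higher, most without no FBS replicate 3, and 5 to 6 lower, most without no FBS replicate 3 or FBS replicate 3). The part of SRF in these levels was not tested.
EGR1: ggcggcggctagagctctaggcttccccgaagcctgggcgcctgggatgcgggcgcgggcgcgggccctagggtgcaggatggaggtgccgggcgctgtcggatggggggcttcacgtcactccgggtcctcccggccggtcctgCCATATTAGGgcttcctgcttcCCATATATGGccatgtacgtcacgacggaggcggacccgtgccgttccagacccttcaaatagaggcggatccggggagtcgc
JUND: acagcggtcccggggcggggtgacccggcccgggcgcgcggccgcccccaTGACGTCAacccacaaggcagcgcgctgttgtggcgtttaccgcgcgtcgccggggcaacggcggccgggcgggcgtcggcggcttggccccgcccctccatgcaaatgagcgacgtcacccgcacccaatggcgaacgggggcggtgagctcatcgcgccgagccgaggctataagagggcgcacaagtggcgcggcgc

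The actin genes that fell included the most abundant ones. ACTB, beta actin, lay at 18204, 11450.3 and 8935 TPM without FBS and 3052, 3092 and 3633 TPM with it (log2 change -1.92 ± 0.21 SE, adjusted p = 0.000319). FLNA, which crosslinks actin filaments, fell too (log2 change -3.36 ± 0.42 SE, adjusted p = 0.000605), and so did ACTG1 (-1.51), the tropomyosin TPM4 (-1.86) and the filament cap CAPG (-1.86). The gene of SRF itself was not called (log2 change 0.61, adjusted p = 0.208). TAGLN, the actin-binding transgelin of smooth muscle, was the 1 that rose (log2 change 3.56, adjusted p = 0.000954). It is also a marker of smooth muscle; of the 4 tested entries of that marker list 1 rose and 1 fell (with 1 library left out 1 higher in each, and 0 to 2 lower, most without no FBS replicate 3).

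Of 13 regulators of self-renewal 5 rose, 2 fell and 6 missed the threshold, with a median of 0.73 (with 1 library left out 5 to 6 higher, most without FBS replicate 2, and 1 to 3 lower, fewest without no FBS replicate 2). KLF2, which is tied to the resting state, lay at 1.66, 3.26 and 8.91 TPM without FBS and 51.97, 59.8 and 68.5 TPM with it (log2 change 3.65 ± 0.45 SE, adjusted p = 0.000578), and its relative KLF4 rose as well (3.12). ID3, an inhibitor of helix-loop-helix factors and a target of BMP signals, went from 9.25, 10.9 and 8.84 to 264, 184 and 215 TPM (log2 change 4.37 ± 0.24 SE, adjusted p = 1e-05). TGFBI, a matrix protein induced by TGF-beta, went from 464, 421 and 359.9 to 2565, 2245 and 2948 TPM (log2 change 2.64 ± 0.15 SE). For ID3 and TGFBI the groups did not overlap. ID1 rose (log2 change 3.54), as did the cytokine gene TGFB1 (2.25), while the receptor TGFBR1 fell (-1.68). Of 16 genes of the TGF-beta and BMP response 5 rose, 2 fell and 9 were not called, with a median of 0.63 (with 1 library left out 5 to 6 higher, most without FBS replicate 3, and 1 to 2 lower, fewest without no FBS replicate 2).

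Genes of lipid-laden macrophages were more often lower than higher, SPP1 and CHI3L1 among them. PPARG, the nuclear receptor that drives lipid uptake, lay at 19.4, 21.7 and 20.5 TPM without FBS and 0, 2.63 and 0.29 TPM with it (log2 change -3.69 ± 0.51 SE, adjusted p = 0.000979). The tetraspanin CD9 fell (log2 change -2.06), and the acid phosphatase ACP5 rose (1.37). PDK4, which other nuclear receptors of the family also raise, went the other way, as given above. Of 15 members 2 rose, 7 fell and 6 were not called, with a median of -0.95 (with 1 library left out 2 higher in each, and 4 to 6 lower, fewest without no FBS replicate 2, FBS replicate 1 or FBS replicate 2).

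Scavenger receptors changed in both directions. CD163L1, a relative of the haemoglobin receptor CD163, lay at 23.9, 30.9 and 23.4 TPM without FBS and 533, 409 and 662 TPM with it (log2 change 4.29 ± 0.23 SE, adjusted p = 1e-05). STAB1, an endocytic receptor of resident macrophages, went from 1163, 1685 and 2117 to 11950.1, 12909.5 and 11003 TPM (log2 change 2.89 ± 0.18 SE, adjusted p = 1.69e-05). Both stood apart from MARCO, which fell, with no overlap of groups in any of the 3. SCARB2, a receptor of the lysosomal membrane, rose (log2 change 1.58). Of 14 scavenger receptors 5 rose, 4 fell and 5 were not called, with a median of 0.51 (with 1 library left out 3 to 4 higher, most without no FBS replicate 1 or no FBS replicate 3, and 1 to 4 lower, fewest without no FBS replicate 2). CD163 rose less (log2 change 0.71, adjusted p = 0.0388), and its call was lost in 5 of the 6 fits (without no FBS replicate 1, no FBS replicate 2, FBS replicate 1, FBS replicate 2 or FBS replicate 3, adjusted p = 0.0521 to 0.162). The mannose receptor MRC1 rose as well (log2 change 1.02, adjusted p = 0.0236), a call lost in 5 (without no FBS replicate 2, no FBS replicate 3, FBS replicate 1, FBS replicate 2 or FBS replicate 3, adjusted p = 0.0515 to 0.0987). CD68, a lysosomal glycoprotein of macrophages, fell (log2 change -0.98, adjusted p = 0.00958), a call lost in 4 (without no FBS replicate 2, FBS replicate 1, FBS replicate 2 or FBS replicate 3, adjusted p = 0.0534 to 0.0775).

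Genes of resident macrophages were mostly higher with FBS. RNASE1, a secreted ribonuclease, lay at 2199, 1953 and 2382 TPM without FBS and 8908, 8539 and 8227 TPM with it (log2 change 1.98 ± 0.10 SE, adjusted p = 1e-05). IGF1, a growth factor made by resident macrophages, went from 57.9, 75.8 and 63.6 to 314, 342 and 382 TPM (log2 change 2.38 ± 0.19 SE, adjusted p = 5.3e-05). MAF, a transcription factor of mature macrophages, went from 35.5, 35.5 and 34.4 to 82.3, 78.2 and 116 TPM (log2 change 1.35 ± 0.23 SE, adjusted p = 0.00316). In these 3 genes the lowest library with FBS lay above the highest without it. The iron exporter SLC40A1 rose (log2 change 2.46), and so did the inhibitory receptor LILRB5 (2.30) and the transglutaminase F13A1 (1.83). The 3 chains of complement C1q, which join into 1 protein, did not move alike. C1QA rose from 1825, 1803 and 1869 to 2814, 2805 and 2939 TPM, while C1QB fell from 1078, 956 and 879.9 to 402, 359.8 and 382 TPM and C1QC fell (log2 change -0.60). Without the mean-variance trend of the fit C1QA and C1QC were not called. Of 21 resident genes 14 rose, 3 fell and 4 were not called, with a median of 1.02 (with 1 library left out 10 to 13 higher, fewest without no FBS replicate 2, FBS replicate 1 or FBS replicate 3, and 2 to 3 lower, most without no FBS replicate 3 or FBS replicate 2).

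**Figure D3:**
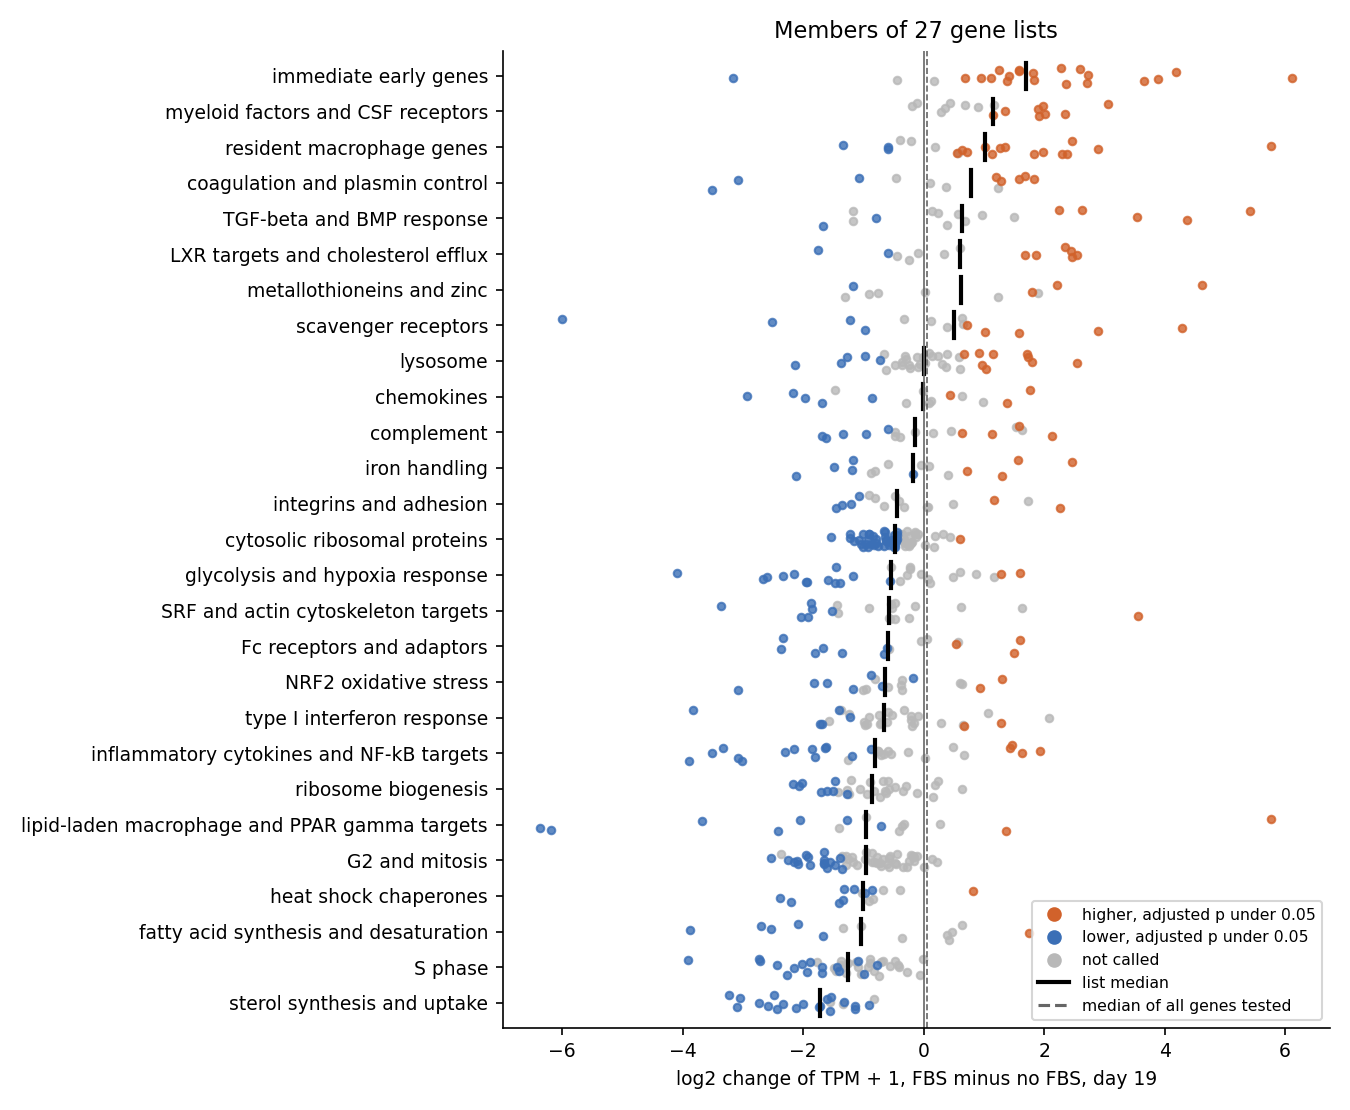
Log2 change of TPM + 1 with FBS at day 19 for every tested member of 27 gene lists, 1 point a gene, with a bar at the median of each list and a dashed line at the median of all genes tested (0.05). The median is lowest for sterol synthesis (-1.73) and highest for immediate early genes (1.70), and most lists between them hold genes called in both directions; after rescaling without the 3 clone genes the medians of complement, chemokines and iron handling lie on the other side of 0.

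Among cytokines and NF-kB targets, more fell than rose. IL1B, a cytokine released by the inflammasome, lay at 366, 267 and 237 TPM without FBS and 39.8, 20.8 and 41.7 TPM with it (log2 change -3.09 ± 0.29 SE, adjusted p = 0.000146). IL6 went from 6.72, 14.4 and 12.8 to 0.64, 0 and 0 TPM (log2 change -3.32 ± 0.48 SE, adjusted p = 0.00122). SOD2, the superoxide dismutase of mitochondria that NF-kB induces, went from 591, 432 and 376 to 70.3, 41.2 and 58.9 TPM (log2 change -3.02 ± 0.25 SE). All 3 fell with no overlap of the groups. TNFAIP6, a secreted protein of inflammation, was at 18.1, 9.56 and 6.37 TPM without FBS and listed at 0 in every library with it (adjusted p = 0.00109). EBI3, a subunit of cytokines of the IL12 family, fell (log2 change -1.86). TNF went against them and rose from 55.9, 73.5 and 63.6 to 169, 172 and 197 TPM (log2 change 1.47 ± 0.20 SE, adjusted p = 0.000826). Of 28 members 4 rose, 13 fell and 11 were not called, with a median of -0.81 (with 1 library left out 3 to 4 higher, most without no FBS replicate 1 or FBS replicate 2, and 10 to 12 lower, fewest without no FBS replicate 2).

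Of 15 chemokines 3 rose and 5 fell (with 1 library left out 0 to 2 higher, fewest without FBS replicate 1 or FBS replicate 3, and 2 to 4 lower, fewest without no FBS replicate 2). CCL2, which draws monocytes, fell from 3556, 3048 and 3171 to 853, 663 and 995 TPM (log2 change -1.98 ± 0.15 SE, adjusted p = 4.98e-05), and its relative CCL8 fell too (-2.94). Of 30 genes of the type I interferon response 2 rose, 5 fell and 23 were not called (with 1 library left out 0 to 2 higher, fewest without FBS replicate 1, and 2 to 5 lower, fewest without no FBS replicate 1 or no FBS replicate 2). Over all genes 12.7% rose and 11.4% fell. IFI27 was at 13.97, 11.8 and 13.9 TPM without FBS and listed at 0 with it, and IFI6 fell (log2 change -1.69). The 2 interferon genes that rose were BST2 (0.67) and IRF7 (1.29). Of 8 genes of HLA class II presentation 2 rose and 1 fell (with 1 library left out 0 to 2 higher, fewest without no FBS replicate 2, no FBS replicate 3 or FBS replicate 1, and 1 to 2 lower, most without FBS replicate 1), the last being HLA-DPB1 (log2 change -3.18, adjusted p = 0.00164). Of 12 monocyte genes 3 rose, THBS1 and the granulocyte growth factor receptor CSF3R (3.05) among them, and 4 fell, with FCN1, a lectin of monocytes (-3.15), and the Fc receptor FCGR3A (-1.67), which shares reads with its near copy FCGR3B, among those (with 1 library left out 2 to 4 higher, most without FBS replicate 3, and 3 to 4 lower, most without no FBS replicate 3). MMP9, a gelatinase, fell from 191, 136 and 155 to 9.44, 16.01 and 7.96 TPM (log2 change -3.78 ± 0.30 SE), MMP12, an elastase of macrophages, fell too (-4.28), and their inhibitor TIMP1 rose (1.54). Of 12 metalloproteinases and inhibitors 3 rose, 2 fell and 7 were not called, and the protease MMP19 (1.74) was among those that rose. With 1 library left out 1 to 2 were higher, most without no FBS replicate 1 or FBS replicate 2, and 2 lower in each. SERPINA1, an inhibitor of elastase, fell (log2 change -3.52), as did ANXA2, a surface receptor for plasminogen (-3.08), and A2M, a broad inhibitor of proteases, rose (1.59). Among adhesion genes the sialic acid receptor SIGLEC1 rose (2.26), and the integrins ITGAX (-1.45) and ITGB2 (-1.07) fell.

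Genes of DNA replication and mitosis were lower where they were called. Of 41 S phase genes 0 rose and 16 fell, with a median of -1.26 (8 to 13 lower when 1 library was left out, fewest without no FBS replicate 2 or no FBS replicate 3). Of 53 genes of G2 and mitosis 0 rose and 17 fell, with a median of -0.96 (7 to 17 lower when 1 library was left out, fewest without no FBS replicate 1). GMNN, which blocks a second round of replication, lay at 31.6, 27.8 and 31.1 TPM without FBS and 2.77, 0 and 1.37 TPM with it (log2 change -3.91 ± 0.49 SE, adjusted p = 0.000592). TYMS, which makes thymidylate, went from 59.8, 57.9 and 53.5 to 16.1, 6.90 and 4.08 TPM, and PCNA, the clamp of DNA polymerase, from 56.5, 59.7 and 73.2 to 26.9, 19.4 and 12.7 TPM. The mitotic kinase AURKA fell (log2 change -2.15), as did CKS2, a partner of cyclin-dependent kinases (-2.09). The proliferation marker MKI67 was not called (log2 change -1.11, adjusted p = 0.0531), and neither was the topoisomerase TOP2A (-0.15, adjusted p = 0.83). CCND1, a D-type cyclin, fell from 122, 139 and 178 to 32.1, 49.9 and 28.6 TPM (log2 change -1.99 ± 0.27 SE), and the CDK inhibitor CDKN1C rose (3.26). The share of dividing cells was not measured in these libraries.

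Genes of the ribosome and of its assembly were lower or not called, with 1 exception. Of 30 genes of ribosome biogenesis 0 rose and 8 fell, with a median of -0.86 (4 to 8 lower when 1 library was left out, fewest without no FBS replicate 1 or FBS replicate 3). NCL, nucleolin, was among them (log2 change -1.60, adjusted p = 0.00133). Of 65 genes of cytosolic ribosomal proteins 1 rose, RPL9, and 38 fell, with a median of -0.48 (with 1 library left out 0 to 1 higher, most without no FBS replicate 3 or FBS replicate 2, and 20 to 37 lower, fewest without no FBS replicate 2). The rise of RPL9 was lost in 4 of the 6 fits (without no FBS replicate 1, no FBS replicate 2, FBS replicate 1 or FBS replicate 3, adjusted p = 0.128 to 0.155). After rescaling without the 3 clone genes 22 of the 65 fell and 4 rose. RPL10A (log2 change -1.54) and RPL15 (-1.22) fell most among those whose call held in every fit. Of 13 genes of the mitochondrial genome 3 rose and 4 fell (with 1 library left out 1 to 2 higher, most without FBS replicate 2, and 2 to 4 lower, fewest without FBS replicate 1 or FBS replicate 2), and the sign of their median (-0.18) turned after that rescaling (0.01).

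Among genes of glycolysis and the hypoxia response, more fell than rose. GAPDH lay at 3278, 2687 and 2673 TPM without FBS and 1109, 1021 and 1024 TPM with it (log2 change -1.45 ± 0.12 SE, adjusted p = 5.67e-05). ENO1, enolase, went from 1144, 896 and 774 to 186, 159.9 and 202 TPM (log2 change -2.34 ± 0.18 SE), and LDHA, which makes lactate, from 208, 118 and 105 to 28.5, 15.4 and 23.4 TPM (log2 change -2.60 ± 0.32 SE). PFKP, the platelet form of phosphofructokinase, was at 19.8, 13.4 and 15.8 TPM without FBS and listed at 0 in every library with it. PGAM1 (log2 change -1.94) and TPI1 (-1.38), which act in the middle of the pathway, fell as well. Of 27 genes of glycolysis and the hypoxia response 2 rose, 13 fell and 12 were not called, with a median of -0.54 (with 1 library left out 0 to 1 higher, most without no FBS replicate 3 or FBS replicate 2, and 10 to 13 lower, fewest without FBS replicate 2). Of 14 heat shock chaperones 1 rose and 8 fell, with a median of -1.001 (with 1 library left out 0 to 1 higher, most without no FBS replicate 1, and 5 to 8 lower, fewest without no FBS replicate 2). The mitochondrial pair HSPD1 (log2 change -2.20) and HSPE1 (-2.39) were among those that fell, with HSP90AB1 (-1.34) of the cytosol. Of 26 genes of amino acid stress and the unfolded protein response 6 rose and 8 fell (with 1 library left out 3 to 4 higher, fewest without no FBS replicate 1, no FBS replicate 2 or FBS replicate 1, and 3 to 6 lower, fewest without no FBS replicate 1, no FBS replicate 3 or FBS replicate 2). The serine synthesis enzyme PSAT1 (-2.31) and the pseudokinase TRIB3 (-2.65) fell, and the secretory factor XBP1 (1.58) and the chaperone CALR (1.25) rose.

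Iron, metal and lysosome genes were called in both directions, where over all genes 12.7% rose and 11.4% fell. The share of lysosome genes that fell was near the share over all genes. FTH1, the ferritin chain that oxidises iron, fell from 27009, 20175 and 19088 to 8812, 8879 and 11541 TPM (log2 change -1.18 ± 0.14 SE, adjusted p = 0.000518), while HMOX1, which breaks down haem, rose (1.31), as did the phagosomal metal pump SLC11A1 (1.56). Of 15 iron genes 4 rose and 5 fell (with 1 library left out 3 to 4 higher, most without no FBS replicate 3, and 2 to 3 lower, fewest without no FBS replicate 1, no FBS replicate 3 or FBS replicate 1). The metallothionein MT1E rose (log2 change 4.61, adjusted p = 0.000194), with the reserve that its near copies share reads. LGMN, an endopeptidase of the lysosome, lay at 257, 219 and 255 TPM without FBS and 1252, 1316 and 1779.8 TPM with it (log2 change 2.55 ± 0.16 SE, adjusted p = 1.81e-05). The calcium channel MCOLN1 (1.80), the mannosidase MAN2B1 (1.72) and the sulphatase ARSA (1.73) rose, and the cathepsins CTSB (-1.37) and CTSH (-2.14) fell. Of 36 genes of the lysosome 9 rose and 5 fell, and 22 missed the threshold, with a median of 0.00 (with 1 library left out 6 to 9 higher, fewest without no FBS replicate 2 or FBS replicate 3, and 2 to 4 lower, fewest without no FBS replicate 1 or no FBS replicate 2). The element TCACGTGA, which the lysosome factor TFEB reads, was in 4 of 35 windows of 22 of these genes (11.4%, against 0.980% of all windows): LAMP1 (log2 change 1.15) and MCOLN1, which rose, ATP6V0D1, which fell (-0.73), and CTSA, which was not called. The call of LAMP1 was lost in 4 of the 6 fits without 1 library (without no FBS replicate 1, no FBS replicate 2, FBS replicate 2 or FBS replicate 3, adjusted p = 0.0647 to 0.0858) and that of ATP6V0D1 in 5 (without no FBS replicate 1, no FBS replicate 2, FBS replicate 1, FBS replicate 2 or FBS replicate 3, adjusted p = 0.0828 to 0.108). Shown are the 250 bases before the start of MCOLN1, plus strand, chr19:7522374-7522623, with both matches in capitals.
MCOLN1: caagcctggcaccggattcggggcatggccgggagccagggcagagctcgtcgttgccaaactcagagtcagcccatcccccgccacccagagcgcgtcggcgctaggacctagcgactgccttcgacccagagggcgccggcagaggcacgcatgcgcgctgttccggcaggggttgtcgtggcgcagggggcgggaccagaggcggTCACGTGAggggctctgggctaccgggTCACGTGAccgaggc

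Motifs of 5 further kinds were read in the same windows. The interferon core TTTCNNTTT was in 20 of 28 windows of interferon genes (71.4%, against 10.5% of all), and the heat shock core GAANNTTC in 11 of 20 windows of chaperones (55%, against 6.77%). The kB core GGGANTTCC was in 3 of 39 windows of the cytokine list (7.69%, against 1.85%), the antioxidant core TGACNNNGC in 5 of 15 windows of oxidative stress genes (33.3%, against 13.3%) and the metal core TGCGCNC in 4 of 10 windows of metallothionein and zinc genes (40%, against 20%). Of all windows 4.95% held the AP-1 element TGACTCA, 0.982% the PU.1 core AGAGGAAGT and 7.26% the E-box CACGTG, which TCACGTGA overlaps. In the windows of the immediate early genes these were in 1, 0 and 4 of 21, and in those of the sterol genes in 0, 0 and 4 of 22.

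Receptors and enzymes that tune the response of macrophages changed as well. FCGRT, the receptor that salvages antibodies and albumin, rose from 1244, 1437 and 1335 to 3935, 4171 and 4013 TPM (log2 change 1.59 ± 0.10 SE, adjusted p = 1.69e-05). FCGR1A, the high-affinity Fc receptor, fell (-1.80), with reads it may share with its near copy FCGR1B. Of 14 Fc receptors and adaptors 3 rose and 7 fell, with a median of -0.60 (with 1 library left out 2 to 3 higher, most without no FBS replicate 1, and 5 to 7 lower, fewest without FBS replicate 1). LTC4S, which makes the leukotriene LTC4, lay at 45.03, 28.3 and 29.6 TPM without FBS and 359, 455 and 350.1 TPM with it (log2 change 3.48 ± 0.23 SE, adjusted p = 2.08e-05), with no overlap between groups. ALOX5AP, which feeds the same pathway, fell (-1.87), as did the kynurenine enzyme KMO (-3.54). Of 16 myeloid factors and growth factor receptors 8 rose and 0 fell, with a median of 1.16 (4 to 8 higher when 1 library was left out, fewest without no FBS replicate 2, FBS replicate 2 or FBS replicate 3). CSF2RA, a receptor chain for GM-CSF (2.01), and the factor CEBPD (2.35) rose. GAS6, the ligand of receptors that clear dying cells, rose (2.34), and the annexin ANXA1 fell (-2.09). The dioxin receptor AHR (2.39) and its targets TIPARP (2.36) and AHRR (1.34) rose, as did the clock and glucocorticoid target PER1 (3.03) and the growth factor HBEGF (1.88). Of the 6 tested targets of AHR, however, 4 rose and 2 fell, with the range over the fits without 1 library given below. The summed level of that list was 165 to 252 TPM without FBS and 121 to 204 TPM with it.

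Whether the effect of FBS at day 19 differed from its effect at days 16 and 23 was tested over the 18 libraries of the 3 days with and without FBS, 3 a group, as the difference between the effects. Against day 16 the effect was higher for 139 of 13290 genes (1.05%) and lower for 84 (0.632%). Against day 23 it was higher for 920 (6.92%) and lower for 1439 (10.8%). With the libraries rescaled without the 3 clone genes, the counts were 205 and 76 against day 16 and 1236 and 1167 against day 23. The calls against day 16 depend on the fit: the 223 became 61 without the mean-variance trend and 98 without day 16 no FBS replicate 3, and they were 122 without day 16 no FBS replicate 1 and without day 19 no FBS replicate 2, 134 without day 16 no FBS replicate 2 and 144 without day 16 FBS replicate 2. The 2 comparisons share the day 19 libraries, so what is peculiar to those enters both.

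Sterol genes had about the same effect at the 3 days. Their median was -1.54 at day 16, -1.73 at day 19 and -1.74 at day 23, and 0 of 22 differed between day 19 and day 16. Between day 19 and day 23, 2 of 22 differed, where over all genes the effect was higher for 6.92% and lower for 10.8%. The 2 sterol genes were LSS (-1.14 at day 19, a call lost without no FBS replicate 2, adjusted p = 0.0644, and -2.18 at day 23) and SREBF2 (-0.82 and -2.14). ABCA1 rose by a log2 change of 2.93, 2.47 and 1.85 at days 16, 19 and 23. APOE had log2 changes of 0.17, 2.34 and -0.62. The difference of APOE was 2.18 ± 0.45 against day 16 (adjusted p = 0.0191) and 2.97 ± 0.45 against day 23 (adjusted p = 0.000205). FABP5 fell more at day 19 (-2.53) than at day 16 (-0.77) or day 23 (-0.92), by -1.76 ± 0.27 (adjusted p = 0.00333) and -1.61 ± 0.27 (adjusted p = 0.00045).

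The median effect of the immediate early genes was 0.03 at day 16, 1.70 at day 19 and 0.65 at day 23. Of the 22 genes 14 differed between day 19 and day 16 and 12 between day 19 and day 23. Among all genes tested the effect was higher for 1.05% and lower for 0.632% against day 16. Against day 23 the shares were 6.92% and 10.8%. FOSB had a log2 change of 3.05, 6.12 and -1.73 at days 16, 19 and 23, positive at days 16 and 19 and negative at day 23. Its difference was 3.06 ± 0.46 against day 16 (adjusted p = 0.00288) and 7.84 ± 0.46 against day 23 (adjusted p = 1.07e-08). FOSB averaged 7.05, 2.41 and 21.4 TPM without FBS at days 16, 19 and 23, and 65.5, 220 and 5.97 TPM with it. EGR1 changed by 0.82, 3.89 and 2.41, a difference of 3.07 ± 0.28 from day 16 (adjusted p = 3.38e-05) and 1.48 ± 0.28 from day 23 (adjusted p = 0.00133). EGR1 averaged 77.3, 11.3 and 14.2 TPM without FBS at days 16, 19 and 23, and 137, 180 and 79.1 TPM with it. Its level without FBS was thus lower at day 19 than at day 16. The values of KLF6 were 0.36, 1.81 and 0.28, those of JUND 0.38, 2.71 and -1.01, and those of IER5 1.99, 1.82 and 1.37. KLF6 and JUND differed from both days, and IER5 from neither.

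Resident macrophage genes differed more often from day 23 than from day 16, as did all genes. Their median effect was 0.76 at day 16, 1.02 at day 19 and 2.00 at day 23, with 2 of 21 differing from day 16 and 15 of 21 from day 23. Over all genes the effect was higher for 1.05% and lower for 0.632% against day 16. Against day 23 it was higher for 6.92% of all genes and lower for 10.8%. F13A1 changed by 1.42, 1.83 and 4.56, and the effect at day 19 was lower than at day 23 by -2.74 ± 0.27 (adjusted p = 2.16e-06). Its mean level at days 16, 19 and 23 was 283, 177 and 6.36 TPM without FBS and 760, 620 and 171 TPM with it. RNASE1 changed by 2.14, 1.98 and 4.26, with a difference of -2.28 ± 0.12 from day 23 (adjusted p = 7.35e-09). Its means were 1713, 2178 and 441 TPM without FBS and 7558, 8558 and 8448 TPM with it. For F13A1 and RNASE1 the level without FBS was lowest at day 23, and the level with FBS was not highest then. STAB1 had the opposite order, with 2.04, 2.89 and 1.32. SPP1 fell at day 16 (-4.55) and day 19 (-6.18) and was not called at day 23 (-0.66), a difference of -5.52 ± 0.44 (adjusted p = 3.2e-07). IL1B changed by -4.36, -3.09 and -0.12, and the day 19 effect was lower than that of day 23 by -2.97 ± 0.34 (adjusted p = 1.2e-05). Glycolysis genes had medians of -1.01, -0.54 and -0.19 at days 16, 19 and 23, with 1 of 27 differing from day 16 and 16 of 27 from day 23. G2 and mitosis genes had medians of 0.24, -0.96 and -0.66, with 3 of 53 differing from each of the other days.

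**Figure D4:**
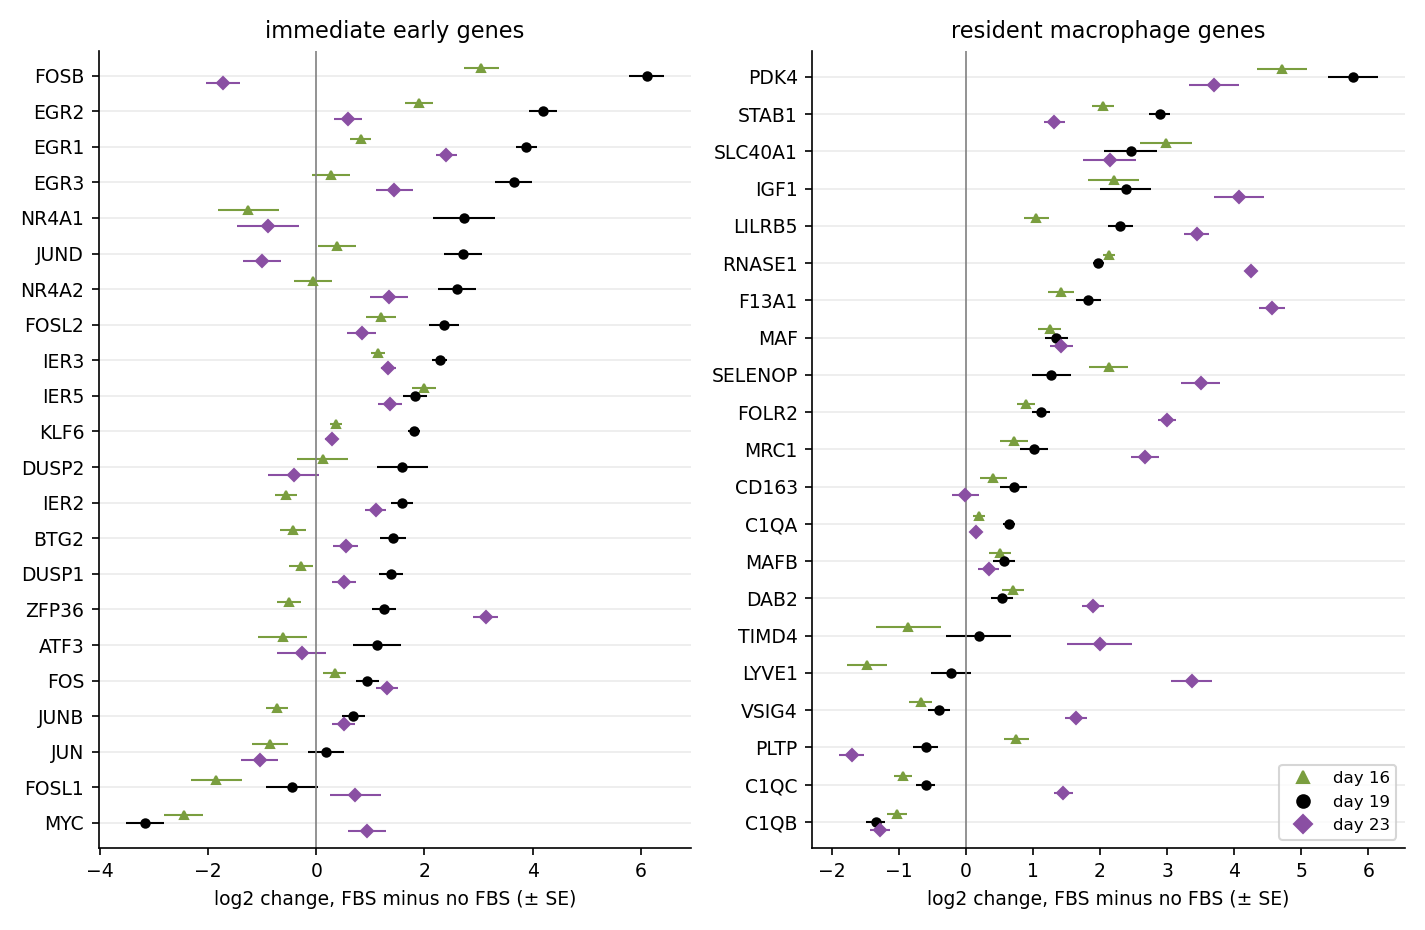
Log2 change with FBS at day 16 (triangles), day 19 (circles) and day 23 (diamonds) for the immediate early genes (left) and the resident macrophage genes (right), with the standard error of the fit of 18 libraries as bars. Most immediate early genes lie furthest to the right at day 19, where FOSB reaches 6.12. Most resident genes that were higher with FBS lie furthest to the right at day 23. Each point sets FBS against no FBS of that day, so its place also depends on the level without FBS.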

How the data were processed

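The values are TPM that the authors deposited as 1 table of 58735 genes in 32 bulk libraries, made on hg38 per the labels; TPM were used as deposited. Per the labels' protocols, RNA was extracted with TRIzol and polyA RNA was sequenced by SMART-seq2. Per the submitters' processing notes, the tools of the series were DESeq2, HTSeq 0.11.1, HISAT2 and Trim Galore 0.4.4; the sources used here do not say which produced these values. Columns were matched to samples by title and groups were read from the labels, 3 libraries a group.

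Genes that averaged 1 TPM or more across the libraries fitted were tested on log2(TPM + 1) with limma 3.58.1 in R 4.3.3 (moderated test with mean-variance trend, two-sided, Benjamini-Hochberg adjustment over all genes tested, threshold 0.05). Fold changes are on that log2(TPM + 1) scale, which understates the change of low genes. The code was tested on simulated data. The sources used here do not give read totals, so counting error is unknown. The 6 day 19 libraries gave the FBS effect, and the 18 libraries of days 16, 19 and 23 its difference between days. Alternatives were other pseudocounts, filters and scalings, array weights, no trend, a replicate block, fits of more libraries and leaving out each library. Chromatin and single-cell files were not used here. A few genes that the rule names are not reported here, and the figures leave them out; list counts and medians include them.

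The gene lists, their members and the alternatives were chosen with earlier results of these data known, so no list is independent support. Genes were named by rule: the 12 largest increases and decreases at 5 TPM or more in the group with more, whose groups did not overlap, up to 6 members of lowest p a list, a fixed set of genes, and 5 genes a direction of each difference between days. Named beyond it, after their values were seen, were ATP6V0D1, CTSA, CYP51A1, DHCR7, FASN, FCGR3B, FOSL2, IER5, INSIG1, JUN, JUND, LAMP1, LSS, MALAT1, NR4A2, RPL9, SELENOP, SREBF1, SREBF2, SRF and ZFP36. Promoter sequences are from RefSeq (GRCh38.p14), matched by symbol, and motifs were read on both strands with Python 3.11.15.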

Additional observations from a re-analysis of the deposited data

Results flagged for a closer look

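The effect of FBS at day 19 differed from that at another day, by the test of the difference itself over 18 libraries, for the genes below. Each value is the log2 effect at day 19 minus that at the other day, and effects are given for days 16, 19 and 23.

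Against day 16 the immediate early genes EGR1, EGR3, FOSB and NR4A1 had differences of 3.07, 3.38, 3.06 and 3.996 (adjusted p = 3.38e-05, 0.0022, 0.00288 and 0.0162). The effects of NR4A1 were -1.26, 2.73 and -0.89, and its call at day 19 was lost in 2 of 6 fits (without FBS replicate 2 or FBS replicate 3, adjusted p = 0.0503 to 0.0599). APOE differed by 2.18 and FABP5 by -1.76, with its pseudogene FABP5P7 at -4.68 and the interferon gene IFI27 at -3.30. Without FBS the mean of IFI27 was 0.66, 13.2 and 0 TPM at days 16, 19 and 23. With FBS it was listed at 0 on each of these days. The cytidine deaminase APOBEC3B differed by -3.64 (effects 1.68, -1.96 and -1.31), PIMREG, a regulator of mitosis, by -3.38 (effects 1.18, -2.20 and -1.74) and the calcium buffer PVALB by -3.81 (effects 2.96, -0.85 and -0.25). IMMP1L, a peptidase of the mitochondrial membrane, differed by 3.45 (effects -2.69, 0.77 and -0.81) and the synuclein SNCG by 3.29 (effects -4.87, -1.58 and -0.12). The call of APOBEC3B at day 19 was lost in 4 of 6 fits (without no FBS replicate 1, no FBS replicate 2, FBS replicate 1 or FBS replicate 3, adjusted p = 0.0538 to 0.072).

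Against day 23 the difference was 7.84 for FOSB, 1.48 for EGR1, 2.97 for APOE and -1.61 for FABP5. SPP1 differed by -5.52, TDO2 by -5.94, IL1B by -2.97, F13A1 by -2.74 and RNASE1 by -2.28. The antisense gene IER3-AS1 differed by 11.44 and the small RNAs RN7SL2 and SNORD3A by 8.72 and 7.46. MRNIP, a protein of DNA repair, had effects of 2.79, 4.28 and -3.35 and differed by 7.62. The readthrough transcript COMMD3-BMI1 differed by -6.19, the noncoding RNA LINC01002 by -5.64 and the pseudogene BTF3L4P2 by -5.71. At day 19 the call of COMMD3-BMI1 was lost in 5 of 6 fits (all but that without FBS replicate 1, adjusted p = 0.0585 to 0.148). That of LINC01002 was lost in 4 (without no FBS replicate 1, no FBS replicate 2, FBS replicate 1 or FBS replicate 3, adjusted p = 0.181 to 0.204). It was also lost after rescaling without the 3 clone genes. The day 16 and day 23 comparisons share the day 19 libraries.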

How the results depend on the processing

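The 3206 calls at day 19 stayed within 1.5 times of that number in every alternative with all libraries kept. Leaving out 1 library gave 1610 to 2319 calls. Against day 16 the 223 calls became 61 without the mean-variance trend and 98 to 216 with 1 library left out, and the cause was not tested. Against day 23 the 2359 calls ranged from 1806 to 2483 with 1 library left out. Deviations of same-numbered libraries from their group means correlated at -0.013, -0.015 and -0.025. With 3 libraries a group this cannot settle whether same-numbered libraries belong together, and the labels do not say. With the replicate block the calls were 2777 at day 19, 165 against day 16 and 2239 against day 23. Of the 170 called genes followed through the alternatives, 0 lost their call with that block. These genes were named largely for a large change or a low p in these data, so they do not represent all called genes. With 1 library left out, 155 of the 170 were called in all 6 fits, against 1296 of the 3206. Median-ratio scaling gave 1675 higher and 1633 lower at day 19, and 1238 higher and 1182 lower against day 23.

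Of 181 genes followed through the alternatives, 170 were called, all of which kept their direction in the 17 alternatives and 152 their call. FASN and TOP2A, not called, changed sign. FASN moved to 0.016 with array weights and ranged from -0.76 to 0.013 with 1 library left out. TOP2A moved to 0.037 after rescaling without the 3 clone genes and ranged from -0.60 to 0.32 with 1 library left out. The number of libraries, 3 a group, limits the precision, and without read totals the counting error of low genes could not be given.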

Other observations

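Further gene groups were measured at day 19. Of 11 genes of alternative activation 5 rose and 0 fell, with a median of 1.02 (2 to 4 higher when 1 library was left out, fewest without FBS replicate 2 or FBS replicate 3), among them CLEC10A, a lectin that reads galactose (log2 change 2.32 ± 0.33 SE). Of 9 vitamin D targets 5 rose and 1 fell (with 1 library left out 2 to 3 higher, fewest without no FBS replicate 2, and 1 lower in each), and of 11 glucocorticoid targets 5 rose and 0 fell (3 to 4 higher when 1 library was left out, fewest without no FBS replicate 2 or FBS replicate 1). Of 6 targets of the aryl hydrocarbon receptor 4 rose and 2 fell (with 1 library left out 3 to 4 higher, most without no FBS replicate 1, and 1 to 2 lower, most without no FBS replicate 2 or FBS replicate 1).

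Among the lists of other cell types, 3 of 12 lymphoid markers were tested. IL7R, the receptor for interleukin 7 (2.32), and the transcription factor RUNX3 (2.64) rose, and the third, NKG7, fell (-3.16), a call lost in 5 of the 6 fits without 1 library (without no FBS replicate 1, no FBS replicate 2, no FBS replicate 3, FBS replicate 2 or FBS replicate 3, adjusted p = 0.0926 to 0.154). ITGA2B, the platelet integrin chain, was at 0.7, 0 and 0 TPM without FBS and 3.07, 13.3 and 7.95 TPM with it (log2 change 2.75 ± 0.58 SE, adjusted p = 0.00818), beside 3 other platelet markers that were tested and not called. A globin of the fetus, HBG2, was at 0, 0 and 0 TPM without FBS and 56.1, 0 and 0 TPM with it.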
